A study of Mus musculus with 16 samples.

Results

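The transcripts of 8 enzymes of asparagine, proline and glutamate metabolism were followed in RNA from mouse cardiac tissue: Asns, Pycr1, Aldh18a1, Prodh, Glul, Got1, Got2 and Gpt2. They were found by their symbols, all 8 of which were present in the deposited count table of 36499 gene entries. Prodh stood on 2 entries and each other symbol on 1, so the 8 enzymes took up 9 entries. All 8 passed the filter on low counts, which left 15255 entries for testing.

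The study compared 4 genotypes with 4 libraries each. These were wild type, Fgf21 KO, Clpp KO and double KO, which lacks Clpp and Fgf21 together. CLPP is the proteolytic part of a protease in the mitochondrial matrix, and FGF21 is a hormone that stressed tissues can secrete. Mice of every group ate normal chow. Clpp KO mice came from floxed Clpp mice (Clpp fl/fl) crossed with a Cre line driven by the β-actin promoter, which is active throughout the body, and heterozygous offspring (Clpp+/-) were then bred with each other. For the double KO, mice with both floxed genes (Clpp fl/fl Fgf21 fl/fl) were crossed with the same kind of Cre line. Both deletions were therefore body-wide and not limited to heart muscle cells. How the Fgf21 KO was made, the age and the sex of the mice are not given in the sources used here. The labels number the libraries but do not say that each came from its own animal, so the p-values describe spread among libraries, some of which may be technical. In bulk tissue, fewer cells of a type and less RNA per cell cannot be told apart.

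Asparagine synthetase, encoded by Asns, turns aspartate into asparagine with glutamine as the nitrogen donor. Proline is built from glutamate: the enzyme encoded by Aldh18a1 makes the semialdehyde intermediate, pyrroline-5-carboxylate reductase 1 (Pycr1) carries out the last step in mitochondria, and proline dehydrogenase (Prodh) starts the reverse path. Glutamine synthetase (Glul) joins ammonia to glutamate. The aspartate aminotransferases Got1, in the cytosol, and Got2, in mitochondria, pass nitrogen between glutamate and aspartate and serve the malate-aspartate shuttle, which heart muscle uses heavily. Gpt2 is the mitochondrial alanine aminotransferase. Asns, Pycr1 and Aldh18a1 are textbook targets of ATF4, the transcription factor of the integrated stress response, which binds elements with the core TGATGNAA.

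The promoters of the enzymes whose levels differed most between genotypes are shown for this core, beside that of Got1, whose match stands on the other strand. All 8 enzymes matched a RefSeq promoter by symbol (GRCm38.p6, 250 bases before to 50 bases after the start). Both strands of each 300-base window were searched for TGATGNAA and for the E-box CACGTG, and the letters of these motifs do not overlap with each other at any printed match. The core occurred in 3.97% and the E-box in 7.15% of 32851 RefSeq promoters. Sequences run 5′ to 3′ on the strand of the gene, with the match in capitals. The Asns stretch covers 30 bases around the match, at chr6:7693214-7693243 on the minus strand. The others cover 129 bases, at chr11:120643770-120643898 for Pycr1, chr19:40588485-40588613 for Aldh18a1 and chr19:43524627-43524755 for Got1, all on the minus strand.
Asns: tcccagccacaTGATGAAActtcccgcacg
Pycr1: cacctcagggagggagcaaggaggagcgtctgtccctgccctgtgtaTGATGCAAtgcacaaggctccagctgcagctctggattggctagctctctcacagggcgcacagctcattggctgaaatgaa
Aldh18a1: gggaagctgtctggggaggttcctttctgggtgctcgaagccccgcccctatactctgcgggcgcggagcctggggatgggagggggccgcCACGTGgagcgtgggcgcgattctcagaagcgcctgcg
Got1: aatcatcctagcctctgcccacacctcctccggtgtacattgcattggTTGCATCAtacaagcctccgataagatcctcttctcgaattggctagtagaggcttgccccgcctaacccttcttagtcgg

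The match began at position -23 from the RefSeq start in Asns and at -103 in Pycr1, both on the strand of the gene. In Got1 it began at -102 on the opposite strand, so it reads as TTGCATCA above. The outermost start of Asns in the GENCODE M21 annotation lies 45 bases upstream of its RefSeq start. By that annotation the Asns match lies within the gene. The Aldh18a1 window held an E-box from position -59 and no TGATGNAA. The windows of Prodh, Glul, Got2 and Gpt2 held no TGATGNAA. A match here is a run of letters only, and binding was not measured.

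Levels are given as CPM scaled by TMM: counts scaled to a common library size, with each library's total corrected by a factor (trimmed mean of M-values) for the few very abundant transcripts that fill part of it. Totals ran from 36260545 to 51820727 counts a library. Messenger RNA of mitochondrial DNA took 25.5% to 39.4% of counts in the 8 libraries with Clpp and 56.1% to 60.8% in the 8 without it, so the scaling matters for every comparison across Clpp. Clpp counts were 1435 to 2636 in libraries with the gene and 267 to 355 without it. Fgf21 had 0 counts in all 8 libraries that lack it, 0 to 5 in wild type and 6 to 28 in Clpp KO. Ventricular muscle markers (9 of 9 found) were abundant throughout, summing to 24712 to 54806 CPM scaled by TMM. Atrial markers (10 of 10 found) varied within every group: they summed to 10481 and 6695 in wild-type libraries 2 and 4 but to 94.3 and 87.1 in libraries 1 and 3. Their sums were 369 to 2952 for Fgf21 KO, 204 to 3656 for Clpp KO and 174 to 1500 for double KO. Adipocyte markers (6 of 6 found) summed to 50.0 and 158 in wild-type libraries 2 and 4 and to at most 12.8 elsewhere, and in the double KO up to 5 of the 6 were at 0 in a library. Log2 fold changes of the 8 enzymes against wild type are therefore given with and without its libraries 2 and 4. The fits without them keep only wild-type libraries 1 and 3, the most alike pair of replicates (Spearman rho of counts 0.997). Their adjusted p-values may therefore understate the spread of the wild type.

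Loss of Clpp was accompanied by higher Asns, Pycr1 and Aldh18a1, the biosynthetic enzymes for asparagine and proline. Asns was 8.55-fold, Pycr1 3.30-fold and Aldh18a1 3.28-fold higher in Clpp KO than in wild type, and each of these rises passed the test. The other 5 enzymes did not pass it. The 3 called, all higher, compare with 1.63% of all 15255 genes called in this comparison (edgeR quasi-likelihood test, Benjamini-Hochberg adjusted p under 0.05 over all genes). The same 3 enzymes were also those whose 4 Clpp KO libraries all lay outside the wild-type range, where 13.7% of all genes showed such a separation in either direction. The median log2 fold change was 0.54 over the 8 enzymes and -0.04 over all genes tested. The 8 enzymes were chosen with earlier results of these data known, so such shares and medians, here and below, are a description only.

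**Figure D1:**
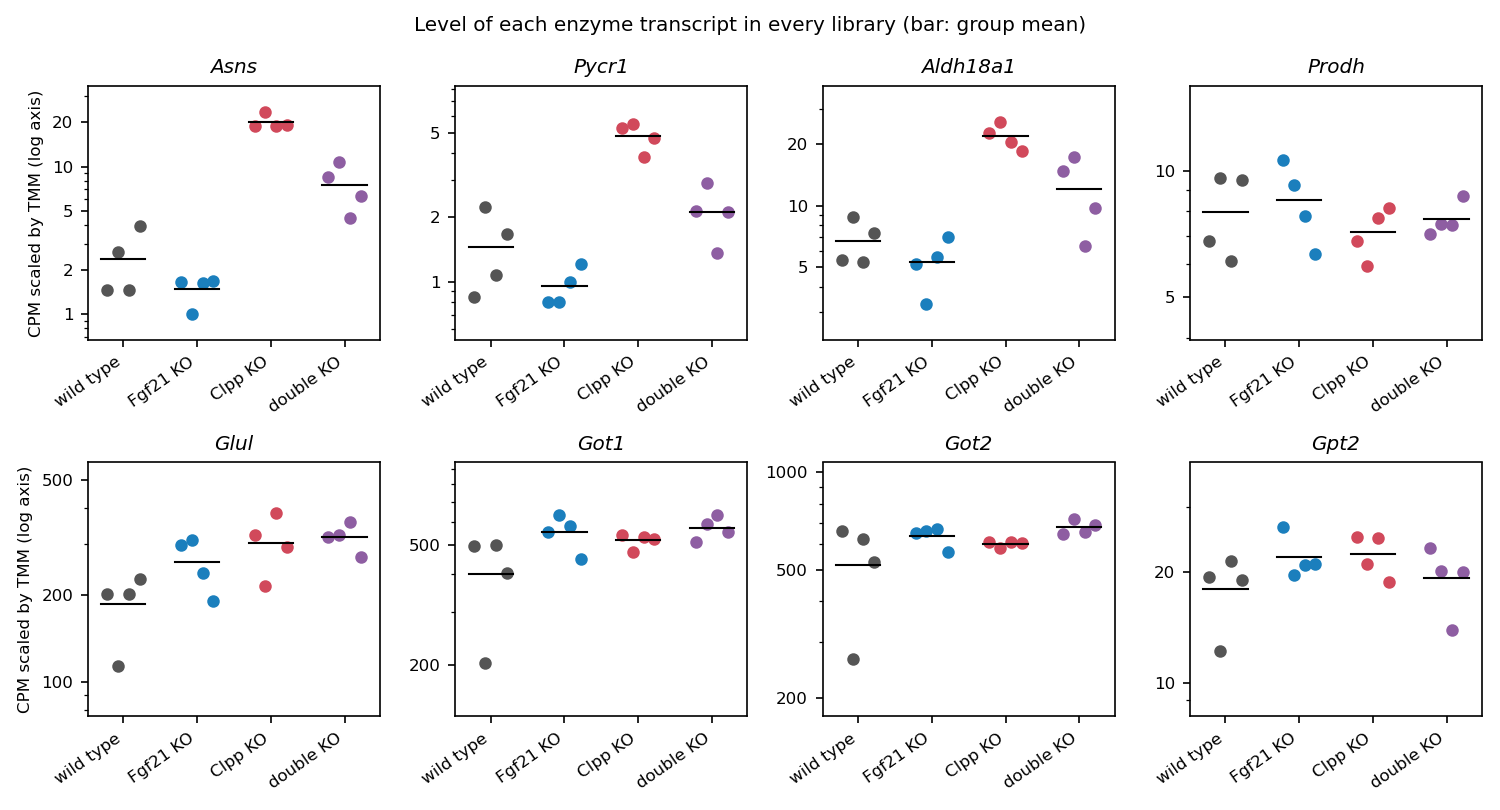
Level of each of the 8 enzyme transcripts in CPM scaled by TMM (vertical log axis) in each library (points) of the 4 genotypes, with the group mean as a bar. Asns, Pycr1 and Aldh18a1 are highest in the Clpp KO libraries and intermediate in the double KO, while wild-type library 2 is the lowest point for Glul, Got1, Got2 and Gpt2.

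Asns (ENSMUSG00000029752, chr6:7675169-7693254, minus strand, GRCm38) had levels of 1.45, 2.63, 1.45 and 3.93 in wild-type libraries 1 to 4. In Fgf21 KO the values were 1.65, 1.00, 1.62 and 1.67. Clpp KO libraries stood at 19.0, 23.6, 19.0 and 19.2, and double KO libraries at 8.56, 10.8, 4.47 and 6.29. The lowest Clpp KO library lay above the highest double KO library, and the lowest double KO library above the highest wild-type library. Group means were 2.36 ± 1.19 (wild type), 1.49 ± 0.325 (Fgf21 KO), 20.2 ± 2.25 (Clpp KO) and 7.52 ± 2.73 (double KO), each with its SD over 4 libraries. Behind these levels stood 79 to 192 counts a library for wild type, 51 to 93 for Fgf21 KO, 610 to 923 for Clpp KO and 144 to 376 for double KO.

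Asns differed between Clpp KO and wild type by a log2 fold change of 3.10 ± 0.32 (SE; edgeR adjusted p = 7.8e-05), rank 12 of all genes by p. Without wild-type libraries 2 and 4, which held the highest Asns of that group, it was 3.80 with an edgeR adjusted p of 3.66e-05. In double KO against Fgf21 KO, the other comparison across loss of Clpp, it was 2.34 ± 0.32 (edgeR adjusted p = 0.000846), a 5.06-fold difference. Against wild type the double KO was 3.19-fold higher, at 1.68 ± 0.31 on the log2 scale (edgeR adjusted p = 0.0123). These comparisons share groups and are not independent of each other. Double KO mice came from a cross of mice with both floxed genes, and how the Fgf21 KO was made is not given. Both double KO comparisons may therefore also differ in breeding line, which cannot be told apart from loss of Clpp. Asns rose in all 3 comparisons of a genotype without Clpp against a genotype with it. In the double KO against wild type, the value was 0.757 and no longer passed the test (edgeR adjusted p = 0.0668) when libraries were scaled by their totals alone.

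Pycr1 (ENSMUSG00000025140, chr11:120635712-120643769, minus strand), the last enzyme of proline synthesis, stood at 0.843, 2.25, 1.07 and 1.68 in wild type. Fgf21 KO libraries had 0.800, 0.804, 0.996 and 1.21. Clpp KO libraries had 5.26, 5.51, 3.84 and 4.71, and double KO libraries 2.13, 2.89, 1.37 and 2.12. Every Clpp KO library lay above every library of the other 3 groups, while double KO and wild type overlapped. The wild-type counts were 46 to 149 and the Fgf21 KO counts 41 to 61 a library, the smallest counts among the 8 enzymes. The log2 fold change in Clpp KO against wild type was 1.72 ± 0.28 (SE; edgeR adjusted p = 0.00399), and 2.33 without wild-type libraries 2 and 4 (edgeR adjusted p = 0.000593).

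Aldh18a1 (ENSMUSG00000025007, chr19:40550257-40588463, minus strand), the first enzyme of proline synthesis, stood at 5.39, 8.75, 5.30 and 7.36 in wild type. Fgf21 KO libraries had 5.19, 3.29, 5.62 and 6.99. In Clpp KO the values were 22.8, 25.8, 20.6 and 18.6, and those of the double KO were 14.8, 17.4, 6.36 and 9.75. As for Pycr1, the Clpp KO group stood clear above all others, and 1 double KO library lay within the wild-type range. The double KO values spread over 2.73-fold, against 1.38-fold in Clpp KO. The log2 fold change in Clpp KO against wild type was 1.71 ± 0.28 (SE; edgeR adjusted p = 0.00433), and 2.04 without wild-type libraries 2 and 4 (edgeR adjusted p = 0.0156).

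Prodh (ENSMUSG00000003526, chr16:18060357-18090203, minus strand), which breaks proline down, had levels of 6.80, 9.58, 6.10 and 9.49 in wild type. Fgf21 KO libraries had 10.6, 9.25, 7.82 and 6.33. Levels in Clpp KO were 6.79, 5.94, 7.70 and 8.14, and those of the double KO were 7.07, 7.47, 7.42 and 8.72. All 4 groups overlapped. Its log2 fold change in Clpp KO against wild type was -0.16 ± 0.17 (SE; edgeR adjusted p = 0.595), with a 95% interval from -0.54 to 0.22, and 0.15 without wild-type libraries 2 and 4. Its second entry, ENSMUSG00000111321, held the same counts in all 16 libraries and is not in the GENCODE M21 annotation, so the 2 entries are not separate measurements. The Prodh locus also overlaps Dgcr6 on the opposite strand over 11276 bases, and counting by strand is not stated.

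Glul (ENSMUSG00000026473, chr1:153899944-153909723, plus strand) was at 203, 114, 202 and 227 in wild type and at 299, 311, 238 and 190 in Fgf21 KO. Clpp KO libraries had 323, 215, 385 and 294, and double KO libraries 318, 324, 359 and 271. All double KO libraries lay above the wild-type range, and Clpp KO overlapped it by 1 library. Its log2 fold change was 0.71 ± 0.22 in Clpp KO against wild type (SE; edgeR adjusted p = 0.106) and 0.77 ± 0.22 in double KO against wild type (edgeR adjusted p = 0.0852), neither of which passed the test. The values were 0.59 and 0.65 without wild-type libraries 2 and 4 (edgeR adjusted p = 0.308 and 0.263). DESeq2 called both on all libraries (adjusted p = 0.0299 and 0.0159), where it called 5.52% and 6.47% of the genes it gave an adjusted p. Of the 31-base words in Glul transcripts 20.4% also occur in other genes, chiefly the pseudogene Glns-ps1, so its count could be split with that copy.

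Got1 (ENSMUSG00000025190, chr19:43499752-43524605, minus strand) stood at 496, 202, 501 and 406 in wild type and at 556, 629, 581 and 450 in Fgf21 KO. In Clpp KO the values were 543, 476, 532 and 525, and those of the double KO were 512, 591, 630 and 556. The double KO lay above the wild-type range and the other groups overlapped it. In Clpp KO against wild type the log2 fold change was 0.37 ± 0.21 (SE; edgeR adjusted p = 0.315), and it was 0.06 without wild-type libraries 2 and 4.

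Got2 (ENSMUSG00000031672, chr8:95864134-95888547, minus strand) stood at 660, 264, 622 and 529 in wild type and at 651, 658, 667 and 566 in Fgf21 KO. Levels in Clpp KO were 608, 582, 609 and 604, and those of the double KO were 645, 716, 657 and 687. The Clpp KO libraries lay within 1.05-fold of each other and inside the wild-type range. The log2 fold change in Clpp KO against wild type was 0.21 ± 0.20 (SE; edgeR adjusted p = 0.542), and -0.09 without wild-type libraries 2 and 4. The transcripts share 30.9% of their 31-base words with other genes, chiefly the gene model Gm10874.

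Gpt2 (ENSMUSG00000031700, chr8:85492576-85527560, plus strand) stood at 19.4, 12.2, 21.5 and 19.0 in wild type and at 26.4, 19.7, 20.9 and 21.1 in Fgf21 KO. Clpp KO libraries had 24.9, 20.97, 24.8 and 18.8, and double KO libraries 23.3, 20.1, 13.9 and 20.0. All 4 groups overlapped. The log2 fold change in Clpp KO against wild type was 0.31 ± 0.18 (SE; edgeR adjusted p = 0.31), and 0.13 without wild-type libraries 2 and 4. Wild-type library 2, with the highest atrial markers, was the lowest wild-type library for Glul and for all 3 aminotransferases, and the part of those markers in these values was not tested. Scaling by library totals alone lowered the median log2 fold change of all genes by 0.757 in Clpp KO against wild type, and Got2 then stood at -0.468 and passed the test in that direction. Gpt2 (-0.396), Got1 (-0.308) and Glul (-0.006) also turned below 0 under that scaling, without passing it.

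**Figure D2:**
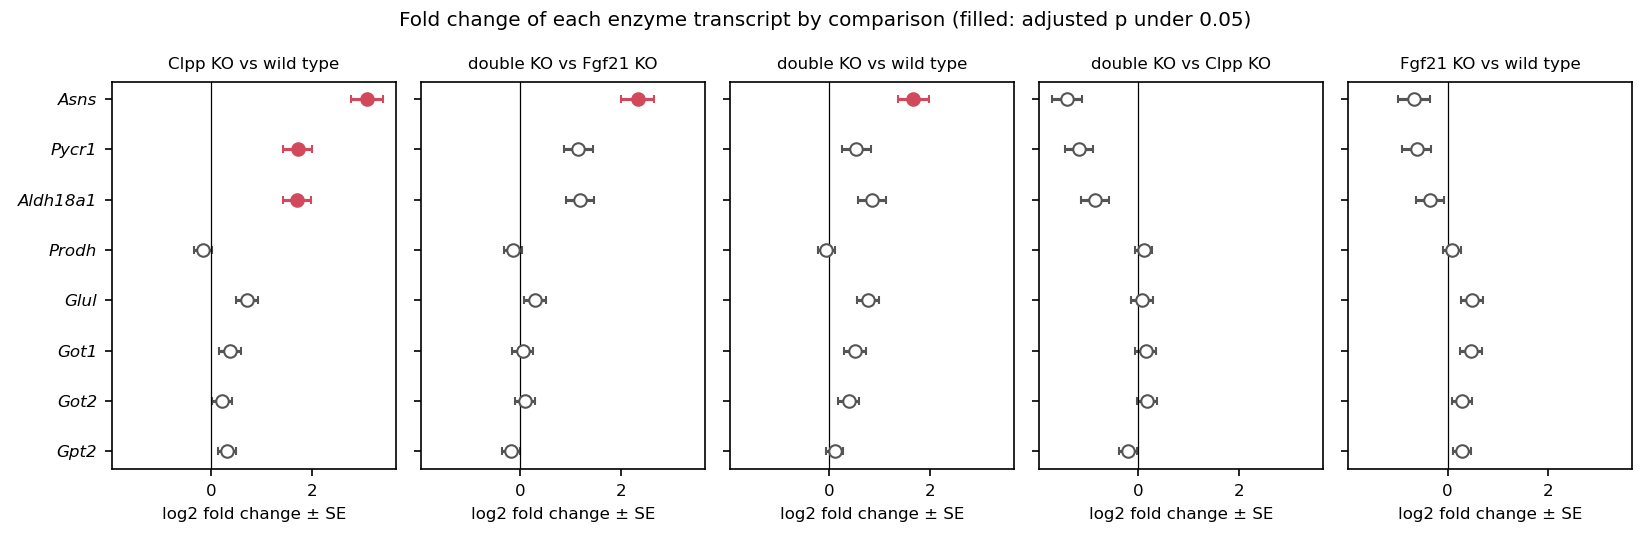
Log2 fold change with its SE (horizontal axis) of each enzyme (rows) in 5 comparisons of genotypes (panels), from the edgeR fit to all 16 libraries; filled red points had an adjusted p under 0.05. Asns is called in the 3 comparisons across loss of Clpp, Pycr1 and Aldh18a1 in Clpp KO against wild type, and no enzyme in the 2 right-hand panels.

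In double KO against Fgf21 KO, Asns was the only 1 of the 8 enzymes called, at 0.892% of all genes called. Pycr1 was 2.23-fold higher, at 1.16 ± 0.29 on the log2 scale (SE; edgeR adjusted p = 0.097), and its groups did not overlap. For Aldh18a1 the log2 fold change was 1.20 ± 0.28 (edgeR adjusted p = 0.0684), and its groups overlapped. Non-overlapping groups were found for Asns and Pycr1, both higher, and for 5.8% of all genes in either direction. DESeq2 called Aldh18a1 and Pycr1 as well, at 1.37% of all genes called. So did edgeR with the atrial marker level as a covariate, at 1.42 for Aldh18a1 (adjusted p = 0.0103) and 1.44 for Pycr1 (adjusted p = 0.00905). That fit called 161 of 15255 genes. Without double KO library 3, the lowest of its group for both, edgeR adjusted p-values were 0.00977 for Aldh18a1 and 0.0452 for Pycr1. The fit without that library called 127 of 15575 genes. Pycr1 also passed without wild-type library 1 (edgeR adjusted p = 0.0486) or 2 (edgeR adjusted p = 0.0391). These fits called 132 of 15531 and 160 of 15338 genes. Log2 fold changes of Glul, Got1, Got2, Gpt2 and Prodh ran from -0.19 to 0.29 here.

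In double KO against wild type, Asns was again the only enzyme of the 8 called, where 1.53% of all genes were. Groups did not overlap for Asns, Glul and Got1, all higher in the double KO, and for 9.85% of all genes in either direction. Aldh18a1 and Pycr1 were not called; the log2 fold change was 0.85 ± 0.28 for Aldh18a1 (SE; edgeR adjusted p = 0.114; DESeq2 adjusted p = 0.0443) and 0.54 ± 0.28 for Pycr1 (edgeR adjusted p = 0.258). Without wild-type libraries 2 and 4, Asns stood at 2.37 (edgeR adjusted p = 0.00136), Aldh18a1 at 1.18 (edgeR adjusted p = 0.209) and Pycr1 at 1.15 (edgeR adjusted p = 0.0776). On all libraries, Got1 had a log2 fold change of 0.51 ± 0.21 (edgeR adjusted p = 0.176), Got2 of 0.38 (edgeR adjusted p = 0.259), Gpt2 of 0.10 and Prodh of -0.06. These 4 values became 0.20, 0.07, -0.08 and 0.25 without wild-type libraries 2 and 4, so Gpt2 and Prodh changed sign. With library totals alone as the scale, Got1, Got2 and Gpt2 turned to -0.320, -0.448 and -0.747, each past the threshold, as the median of all genes moved by -0.907. Pycr1 (-0.433), Glul (-0.082) and Aldh18a1 (-0.075) turned as well, without passing it.

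The comparison of double KO with Clpp KO asks what the absence of Fgf21 adds when Clpp is missing. These groups also came from different crosses, so breeding line and absence of Fgf21 cannot be told apart. The same 3 enzymes that were high in Clpp KO were lower in every double KO library than in any Clpp KO library. By edgeR none of the 8 enzymes passed the threshold, and 0.059% of all genes did. Of the 8, these 3 had an unadjusted edgeR p under 0.05, as did 3.55% of all genes. DESeq2 called 2 of the 3, and 0.23% of all genes. Log2 fold changes were -1.42 ± 0.30 for Asns (SE; edgeR adjusted p = 0.234), -1.18 ± 0.28 for Pycr1 (edgeR adjusted p = 0.437) and -0.86 ± 0.28 for Aldh18a1 (edgeR adjusted p = 0.994). The 95% intervals were -2.08 to -0.77, -1.79 to -0.57 and -1.46 to -0.26. By DESeq2, Asns stood at -1.43 (adjusted p = 0.00259) and Pycr1 at -1.19 (adjusted p = 0.0238).

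Groups did not overlap for 4 enzymes in this comparison. Asns, Pycr1 and Aldh18a1 were the 3 lower ones and Got2 the higher one, and 5.78% of all genes were separated in either direction. Got2 differed by 0.17 ± 0.20 on the log2 scale (SE; edgeR adjusted p = 0.994). Glul, Got1, Gpt2 and Prodh had log2 fold changes from -0.21 to 0.14 with overlapping groups. The median was -0.07 over the 8 enzymes and 0.01 over all genes tested.

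All 16 libraries share 1 estimate of the spread in this model. Without wild-type libraries 2 and 4, Asns stood at -1.43 with an edgeR adjusted p of 0.0172, which passed the test. There, 15 of 15540 genes were called. That fit keeps only wild-type libraries 1 and 3, the most alike pair of replicates, so its shared spread may be too low. Leaving out any single library gave values from -1.64 to -1.24 with adjusted p-values from 0.0712 to 0.751. Atrial markers, as a mean log2 CPM, were lower in double KO libraries 2, 3 and 4 than in every Clpp KO library. With the atrial marker level as a covariate, Asns stood at -1.13 (edgeR adjusted p = 0.396), Pycr1 at -0.91 and Aldh18a1 at -0.63. Double KO library 2, with atrial markers at a mean log2 CPM of 0.769, had the highest Asns, Pycr1 and Aldh18a1 of its group, above library 1 at 5.605. Libraries 3 and 4 of that group, with the lowest atrial means (-0.418 and -0.183), had the lowest values of all 3 enzymes. Within Clpp KO, library 2 had the highest atrial mean (6.844) and the highest values of all 3. Library 4 there had the lowest atrial mean (1.438) and the lowest Aldh18a1, but not the lowest Asns or Pycr1. Beyond the covariate fit, the part of atrial content was not tested.

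**Figure D3:**
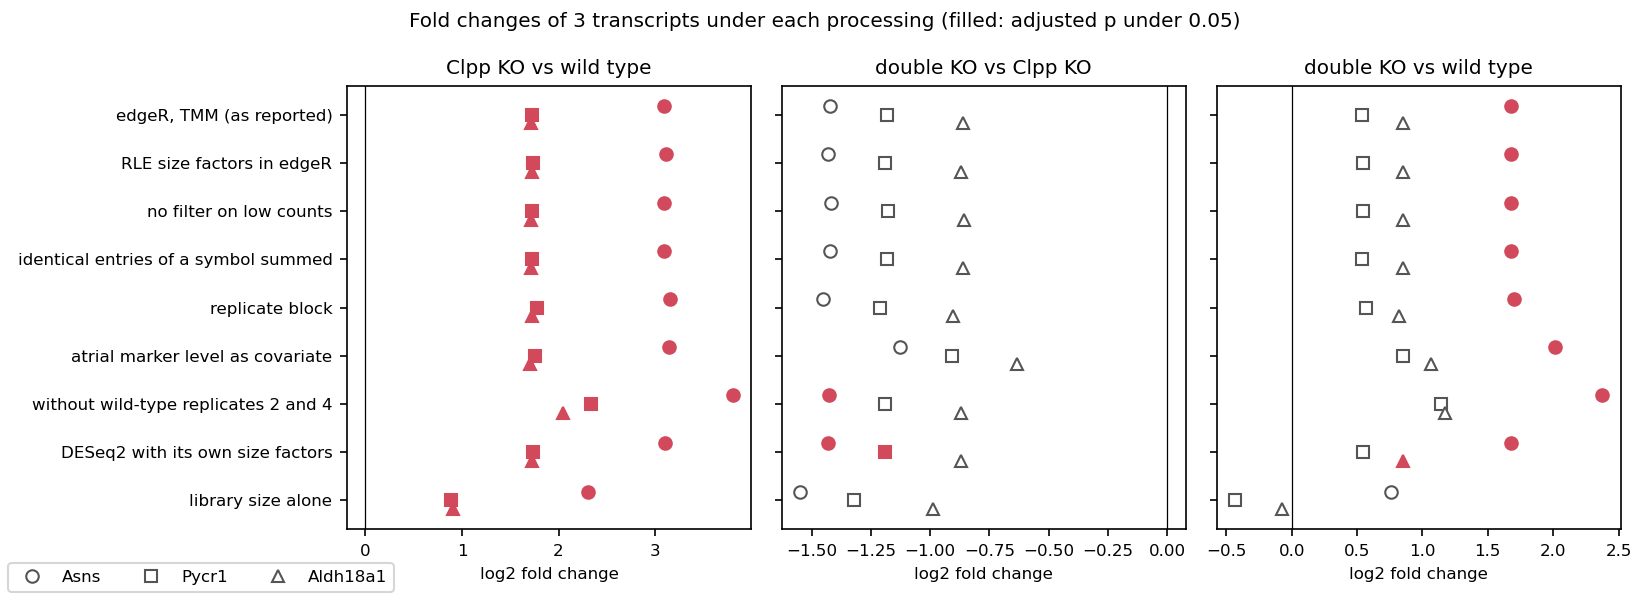
Log2 fold change (horizontal axes) of Asns (circles), Pycr1 (squares) and Aldh18a1 (triangles) in 3 comparisons (panels) under each way of processing the counts (rows); filled red points had an adjusted p under 0.05. In Clpp KO against wild type all 3 enzymes are called in every row, whereas in double KO against Clpp KO the values stay below 0 and only DESeq2 and the fit without wild-type libraries 2 and 4 give calls.

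In Fgf21 KO against wild type, edgeR called none of the 8 enzymes, at 0.0459% of all genes called. DESeq2 called none either, at 0.223% of all genes. An unadjusted edgeR p under 0.05 was found for 3 of the 8, Pycr1, Glul and Got1, and for 9.17% of all genes. Groups overlapped for all 8 enzymes, and 2.72% of all genes had groups that did not. Asns and Pycr1 had the lowest values; the log2 fold change was -0.66 ± 0.32 for Asns (SE; edgeR adjusted p = 0.538), with a 95% interval from -1.36 to 0.03, and -0.62 ± 0.29 for Pycr1. These values were 0.05 and 0.00 without wild-type libraries 2 and 4, so the differences rested on those libraries. Aldh18a1 stood at -0.35 ± 0.28, Glul at 0.48 ± 0.22, Got1 at 0.47 ± 0.21, Got2 at 0.29, Gpt2 at 0.29 and Prodh at 0.09. Glul was at 0.37 (edgeR adjusted p = 0.667) and Got1 at 0.17 (edgeR adjusted p = 0.71) without wild-type libraries 2 and 4. Aldh18a1 then stood at -0.01, Got2 at 0.00, Gpt2 at 0.12 and Prodh at 0.41.

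The interaction, which subtracts the effect of Fgf21 loss in the presence of Clpp from its effect in the absence of Clpp, gave no call for any enzyme or for any gene (0% called by edgeR). At an unadjusted p under 0.05 it held 0 of the 8 enzymes and 299 of all genes (1.96%), and DESeq2 called 0 of the 8 and 3 of all genes (0.0197%). Asns had a log2 difference of -0.76 ± 0.44 (SE; edgeR adjusted p = 1), with a 95% interval from -1.71 to 0.19. Gpt2 stood at -0.50 ± 0.25, Pycr1 at -0.56 ± 0.40 and Aldh18a1 at -0.52 ± 0.39. Leaving out wild-type libraries 2 and 4, Asns was at -1.48 and Pycr1 at -1.19, again without a call. A difference in the effect of Fgf21 loss between hearts with and without Clpp was therefore not shown for these enzymes, and the intervals do not exclude one. Because Clpp KO and double KO came from different crosses, this contrast does not isolate Fgf21 loss either.

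Some enzymes varied together among the 8. Asns, Pycr1 and Aldh18a1 were ordered alike within the double KO: library 2 was highest for all 3, then libraries 1, 4 and 3. As a description over 16 libraries, deviations from the group means of log2 levels correlated at r = 0.84 for Asns with Aldh18a1, 0.79 for Asns with Pycr1 and 0.81 for Aldh18a1 with Pycr1. Got1 and Got2 had r = 0.96 for the same deviations, and wild-type library 2 was the lowest for both. Glul correlated with them at 0.77 and 0.68. Between Asns, Pycr1 or Aldh18a1 and Got1 or Got2 the 6 values were negative, from -0.33 for Asns with Got2 to -0.74 for Pycr1 with Got1. Gpt2 had r = 0.50 with Got1 and 0.64 with Got2, and -0.22 to 0.20 with Asns, Pycr1 and Aldh18a1. Prodh followed neither set, at -0.34 to 0.26 with the other 7 enzymes. All these points share the library, its scaling and its atrial content.

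**Figure D4:**
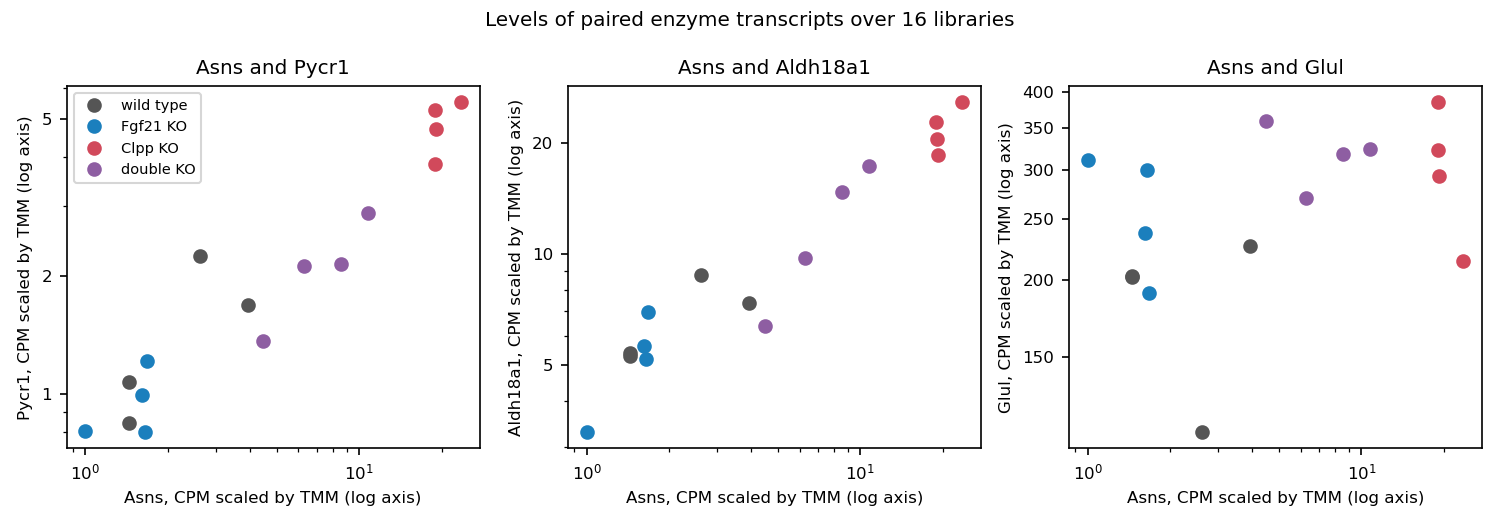
Level of Pycr1, Aldh18a1 and Glul (vertical log axes) against the level of Asns (horizontal log axis), all in CPM scaled by TMM, with 1 point for each of the 16 libraries. Pycr1 and Aldh18a1 climb with Asns through the groups and within the double KO, from 4.47 to 10.8 in Asns, while Glul shows no such order within groups.

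The genes whose log2 levels over the 16 libraries were most like those of Asns, among 11906 genes, were Mthfd2 (Pearson r = 0.99, Spearman rho = 0.98), a mitochondrial enzyme of the folate cycle, and Phgdh (r = 0.99, rho = 0.98), which opens serine synthesis. Next came Atf5 (r = 0.99, rho = 0.97), a transcription factor of mitochondrial stress, Bcl2 (r = 0.97, rho = 0.94), which restrains cell death, and Aldh18a1 (r = 0.96, rho = 0.95). For Pycr1 they were Phgdh, Aldh18a1 and Asns (r = 0.97, 0.96 and 0.96; rho = 0.91, 0.97 and 0.92), and for Aldh18a1 they were Phgdh, Asns and Pycr1 (r = 0.97, 0.96 and 0.96; rho = 0.93, 0.95 and 0.97). The group means differ widely, so libraries of a genotype lie together in each of these pairs. Phgdh transcripts share 56.3% of their 31-base words with other genes, chiefly Gm7901.

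The other enzymes had different neighbours in level. Got1 was most like Slc25a20, the mitochondrial carnitine carrier, Pgm1 and Atp5b (r = 0.98 each; rho = 0.91, 0.92 and 0.89). Got2 was most like Vdac1, Immt and Atp5a1 (r = 0.99, 0.99 and 0.98; rho = 0.95, 0.76 and 0.89), which encode proteins of the mitochondrial membranes. Glul came closest to Naca, Cpt1b and Iba57 (r = 0.91, 0.90 and 0.90; rho = 0.83, 0.86 and 0.76). Prodh came closest to Spa17, Fam98c and Anapc5 (r = 0.90, 0.89 and 0.89; rho = 0.92, 0.86 and 0.89). For Gpt2, whose nearest genes were Tln2, Pdp2 and Lynx1 (r = 0.89, 0.88 and 0.85), the rank correlation was lower (rho = 0.72, 0.60 and 0.55).

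Levels can be compared between enzymes only per length, here as CPM scaled by TMM for each kilobase of exon in GENCODE M21. In wild type the order was Got1 (158 ± 55.0, SD, n = 4), Got2 (108 ± 37.0), Glul (56.1 ± 14.9), Gpt2 (3.20 ± 0.716), Aldh18a1 (1.64 ± 0.409), Prodh (1.02 ± 0.232), Asns (0.864 ± 0.433) and Pycr1 (0.371 ± 0.161). Ranges of 1 SD around the means overlapped for all neighbours in this order except Glul with Gpt2 and Gpt2 with Aldh18a1. In Clpp KO, Asns moved from the seventh to the fourth place at 7.38 ± 0.824 per kilobase, above Aldh18a1 at 5.39 ± 0.755 and Gpt2 at 3.96 ± 0.528. In double KO it was the sixth, at 2.75 ± 0.999, within the spread of Aldh18a1 at 2.96 ± 1.21 and Gpt2 at 3.43 ± 0.696. Pycr1 was the least abundant enzyme in every group but Clpp KO, where it stood at 1.23 ± 0.188 beside Prodh at 0.916 ± 0.125. The place of Prodh is uncertain, as its reads may be divided between its 2 entries.

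Related enzymes mostly did not pass the test. Of 14 other enzymes and carriers of asparagine and aspartate, all tested, edgeR called none in Clpp KO against wild type. It called 1.63% of all genes there. The most abundant were the malate dehydrogenases Mdh1 and Mdh2, at log2 fold changes of 0.11 ± 0.18 (SE; edgeR adjusted p = 0.74) and 0.03 ± 0.17 (edgeR adjusted p = 0.936). Of 8 other proline and ornithine enzymes tested, edgeR also called none. Oat, which links ornithine to the proline path, stood at 0.07 ± 0.12 (edgeR adjusted p = 0.734), and Aldh4a1, which finishes proline breakdown, at 0.23 ± 0.21 (edgeR adjusted p = 0.541). The medians of the 2 lists were 0.00 and -0.02, beside -0.04 for all genes. At an unadjusted edgeR p under 0.05 there were 1 of the 14 and 2 of the 8, beside 21.3% of all genes. DESeq2 called 0 of the 14 and 1 of the 8, which was P4ha1, a subunit of collagen prolyl hydroxylase, as lower. Its share over all genes with an adjusted p was 5.52%.

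In Clpp KO against wild type, edgeR called 1.63% of all genes. Of 15 other glutamate and glutamine enzymes and carriers tested, 1 was called there. This was Gclc, the catalytic part of the enzyme that starts glutathione synthesis, at 0.71 ± 0.16 (SE; edgeR adjusted p = 0.0304). Its adjusted p was 0.123 by edgeR without wild-type libraries 2 and 4, at a value of 0.73. It also missed the threshold in 6 fits that each left out 1 library (wild-type library 2 or 4, or any 1 of the Clpp KO libraries), with edgeR adjusted p-values from 0.059 to 0.095. Of 8 other aminotransferases that use glutamate, Psat1, the aminotransferase of serine synthesis, was called at 1.42 ± 0.22 (edgeR adjusted p = 0.00241). Psat1 was also higher in double KO against Fgf21 KO, at 1.04 ± 0.22 (edgeR adjusted p = 0.0325). It was the only 1 of the 8 called there, beside 0.892% of all genes. That second call was lost in 7 fits that each left out 1 library (any double KO library, or Fgf21 KO library 1, 3 or 4), with edgeR adjusted p-values from 0.0596 to 0.142. The branched-chain aminotransferase Bcat2 rose in Fgf21 KO against wild type, at 1.34 ± 0.20 (edgeR adjusted p = 0.0127), and in double KO against wild type, at 1.11 ± 0.20 (edgeR adjusted p = 0.00941). The first of these was lost without wild-type library 3 or Fgf21 KO library 1 (edgeR adjusted p = 0.0573 and 0.0609). In double KO against Clpp KO, edgeR did not call Bcat2, and it called 0.059% of all genes. Of 16 fits that each left out 1 library, 1 called Bcat2 there. This was the fit without wild-type library 2, at 1.00 (edgeR adjusted p = 0.0222), which called 10 of 15338 genes. Mean Bcat2 levels were 148 in Fgf21 KO and 126 in double KO, beside 58.6 in wild type and 62.7 in Clpp KO. Both higher groups carry the altered Fgf21 gene, so a local effect of that allele and loss of the FGF21 hormone cannot be told apart. The list medians in Clpp KO against wild type were 0.09 and -0.18. Without wild-type libraries 2 and 4, edgeR called 2 of the 15 glutamate and glutamine genes, Slc25a22 and Slc38a2, and the median of the aminotransferases was -0.02. That fit called 159 of 15540 genes, and the median of all genes was 0.00.

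Of 17 transcription factors, stress kinases and other regulators grouped with the amino acid response, 3 rose in Clpp KO against wild type. Over all genes edgeR called 1.63%. Atf5 stood at 2.07 ± 0.23 (SE; edgeR adjusted p = 0.000111), Trib3, a pseudokinase induced by ATF4, at 1.75 ± 0.25 (edgeR adjusted p = 0.00126) and Eif2ak2, the kinase PKR, at 1.02 ± 0.13 (edgeR adjusted p = 0.000481). The related kinases Eif2ak1, Eif2ak3 and Eif2ak4 were not called. In double KO against Fgf21 KO, Atf5 (1.26 ± 0.22, edgeR adjusted p = 0.00656) and Eif2ak2 (0.97 ± 0.13, edgeR adjusted p = 0.000565) were called, beside 0.892% of all genes. The transcript of Atf4 itself, named after its values were seen, stood at 0.19 ± 0.21 in Clpp KO against wild type (edgeR adjusted p = 0.616). ATF4 is controlled largely at translation, which was not measured. The list median was 0.18. When wild-type libraries 2 and 4 were left out, edgeR called 5 of the 17 (also Ddit3 and Myc) and the median was 0.49. It then called 159 of 15540 genes, with a median of 0.00 over all genes. In double KO against Clpp KO, Atf5 was at -0.92 ± 0.22 (edgeR adjusted p = 0.437), with a level of 164 ± 10.7 for Clpp KO and 86.5 ± 27.0 for double KO (SD over 4 libraries).

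**Figure D5:**
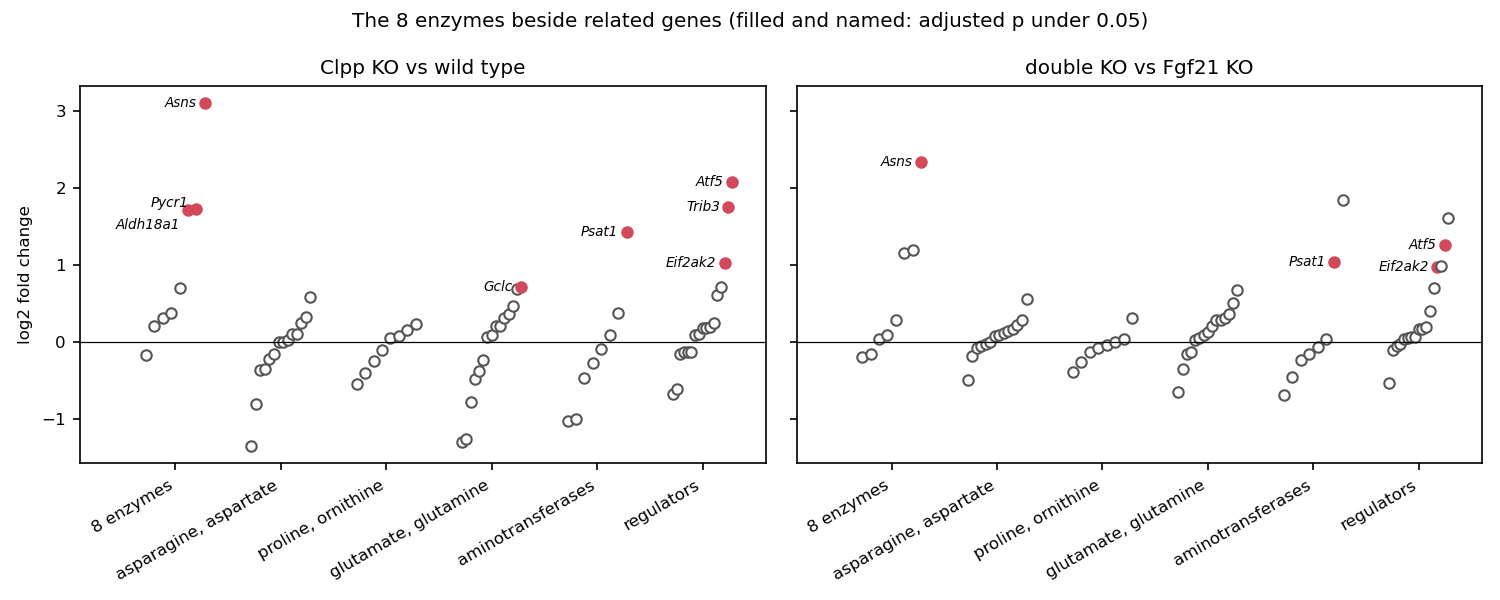
Log2 fold change (vertical axis) of each tested gene (points) among the 8 enzymes and the 5 lists of related genes (horizontal axis), in Clpp KO against wild type (left) and double KO against Fgf21 KO (right); filled, named points had an edgeR adjusted p under 0.05. Asns is the highest point in both panels, at 3.10 and 2.34, and the 2 lists of other asparagine, aspartate, proline and ornithine genes hold no filled point.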

How the data were processed

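RNA was sequenced from cardiac tissue, 4 libraries for each of 4 genotypes. The authors deposited whole-number counts per gene. Per the submitters' processing notes, fastp 0.21.0, kallisto 0.46.1, edgeR 3.32.1, DESeq2 1.30.1, R 4.0.3 and the build GRCm38.p6 were used; their roles, and how the counts became whole, are not given in the sources used here. kallisto shares reads between similar transcripts, so genes with near-identical copies are uncertain. Per the labels' protocols the library kit was stranded.

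Counts were tested as deposited with edgeR 4.0.16 (R 4.3.3): filterByExpr (minimum count 10, minimum total 15), TMM scaling (factors 0.674 to 1.83), and 1 robust quasi-likelihood model with 1 mean per group over 16 libraries, 12 residual degrees of freedom, common biological variation (BCV) 0.249. SE is the log2 fold change divided by the square root of F. Tests were two-sided, with Benjamini-Hochberg adjustment over all 15255 genes and a threshold of 0.05. The steps were tested on simulated counts. Coordinates and exon lengths are from GENCODE M21, promoters from RefSeq; 31-base words were compared between annotated transcripts.

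Named were the 8 enzymes, Clpp and Fgf21; of each related list the called genes, or the 2 most abundant where none was; and the genes with the highest Pearson correlation to an enzyme (5 for Asns, 3 for each other) among tested genes with a mean of at least 1 CPM. Markers of brown fat summed to 14.5 to 76.2 CPM scaled by TMM, of skeletal muscle to 0.898 to 3.14, fibroblasts 331 to 873, endothelium 342 to 478, macrophages 62.0 to 112, nerve 7.61 to 26.2, smooth muscle 397 to 1250 and red blood cells 636 to 10955. The members and lists were chosen with earlier results of these data known. Wild-type libraries 1 and 3 were more alike than any other pair but differed beyond sampling noise and were kept apart. The labels name no batch. Alternatives were DESeq2 1.42.0, other scalings, no filter, a replicate block, an atrial covariate, leaving out libraries and, added after the data were seen, summing identical entries of a symbol.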

Additional observations from a re-analysis of the deposited data

Results flagged for a closer look

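Of 32 sets of 4 libraries (8 enzymes in 4 groups), 3 held a library whose gap to its nearest neighbour exceeded Dixon's critical share of the range of the set, where chance flags about 1 in 20. Asns stood at 1.00 in Fgf21 KO library 2, against 1.62 to 1.67 in the other 3. Asns stood at 23.6 in Clpp KO library 2, against 19.0 to 19.2 in the others. Got2 stood at 566 in Fgf21 KO library 4, against 651 to 667 in the others. All are CPM scaled by TMM.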

How the results depend on the processing

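Over 24 alternative settings the 8 enzymes gave 1152 values, of which 1126 kept their side of the threshold. The others were 1 call lost, 19 gained and 6 called with the opposite sign; 43 uncalled values differed in sign. Asns, Pycr1 and Aldh18a1 passed in Clpp KO versus wild type under all 24. The cause of the changes below was not tested. Fits that leave out libraries also have fewer residual degrees of freedom.

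Scaling by library totals alone, which moves the median of all genes by -0.907 to 0.063, called 5 enzymes in Clpp KO versus wild type, 5 in double KO versus Fgf21 KO and 4 in double KO versus wild type, and 11933, 10858 and 13124 of all genes. The share of calls that were higher fell from 66.3% to 0.796%, from 92.6% to 0.884% and from 68.7% to 0.648%, from 71.4% to 60% in Fgf21 KO versus wild type and from 66.7% to 55.6% in double KO versus Clpp KO. Signs turned with a call, as log2 fold changes, for Got2 (-0.468) in Clpp KO versus wild type, Got1 (-0.645) and Got2 (-0.601) in double KO versus Fgf21 KO, and Got1 (-0.320), Got2 (-0.448) and Gpt2 (-0.747) in double KO versus wild type. Without a call they also turned for Got1, Gpt2 and Glul in Clpp KO versus wild type, Pycr1, Glul and Aldh18a1 in double KO versus wild type, Glul in double KO versus Fgf21 KO, Prodh, Got1 and Glul in double KO versus Clpp KO, and Prodh in Fgf21 KO versus wild type. Among related genes signs turned in Clpp KO versus wild type for Mdh2 (-0.680), Mdh1 (-0.587), Aldh4a1 (-0.442), Bcat2 (-0.617), Oat (-0.646), Gclc (-0.052) and Atf4 (-0.578), and for Atf4 (-0.531) in double KO versus Fgf21 KO.

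DESeq2 called 841 genes in Clpp KO versus wild type (main count 249), 34 in Fgf21 KO versus wild type (7), 35 in double KO versus Clpp KO (9), 209 in double KO versus Fgf21 KO (136), 966 in double KO versus wild type (233) and 3 in the interaction (0). Its shares of higher calls in the first 5 were 52.2%, 58.8%, 51.4%, 84.7% and 43%. Of the enzymes it called 4, 0, 2, 3, 3 and 0. Without wild-type libraries 2 and 4 the counts of all genes were 159 in Clpp KO versus wild type, 15 in double KO versus Clpp KO, 241 in double KO versus Fgf21 KO and 148 in double KO versus wild type, and of enzymes 1 in double KO versus Clpp KO and 2 in double KO versus Fgf21 KO. With the atrial covariate all genes called were 1046 in Clpp KO versus wild type, 13 in Fgf21 KO versus wild type and 1 in the interaction. In double KO versus Fgf21 KO that fit called 3 enzymes and 161 of 15255 genes.

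Leaving out 1 library gave 114 to 949 genes in Clpp KO versus wild type (504 without wild-type library 1, 949 without 3, 138 without 4, and 114, 134, 125 and 124 without Clpp KO libraries 1 to 4). In double KO versus wild type it gave 129 to 1116 (870, 1116 and 146 without wild-type libraries 1, 3 and 4, and 141, 129, 144 and 150 without double KO libraries 1 to 4). The enzymes called in double KO versus Fgf21 KO were then 1 to 3, beside 94 to 160 of all genes. The other enzyme counts stayed at 3, 0, 0, 1 and 0.

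The replicate numbers do not pair the libraries: deviations of same-numbered libraries correlated at -0.37 to 0.39, over 0.1 in 3 of 24 pairs. A replicate block called 146 genes in Clpp KO versus wild type and changed no call on an enzyme (Asns 3.15, adjusted p = 0.000358). Depth limits Pycr1 most, with 41 to 61 counts a library in Fgf21 KO.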
